A study of Homo sapiens with 4 samples.

Results

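The genes described here are 10 members of the programme that exchanges one cadherin for another when epithelial cells take on mesenchymal features. They are the cadherins CDH1, CDH2 and CDH3, the transcription factors SNAI1, SNAI2, ZEB1, ZEB2 and TWIST1, and the mesenchymal products VIM and FN1. They were chosen by symbol, and all 10 were matched among 17182 named genes, with 11 of the 45033 probe sets. FN1 had 2 probe sets and each other gene had 1. KYSE410, a human cell line from a squamous carcinoma of the oesophagus, was treated for 24 h with the cytokines TNFα (tumour necrosis factor α) or IL1β (interleukin 1β), with LPS (lipopolysaccharide of Gram-negative bacteria), or with PBS (phosphate-buffered saline), the control solvent. All 4 conditions share this line and its culture medium with serum and antibiotics, and the sources used here do not give the doses. Each condition was measured on 1 single-colour NimbleGen array, so there is no replicate error and no test, and precision is limited by that number of arrays.

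Cadherins are calcium-dependent adhesion proteins that hold cells together at adherens junctions and are tied to actin through catenins. Epithelial cells carry E-cadherin (CDH1), whereas N-cadherin (CDH2) is typical of neural, mesenchymal and heart muscle cells. P-cadherin (CDH3) belongs to the basal layer of squamous epithelia. The SNAI and ZEB zinc finger proteins repress CDH1 by binding E-boxes, short DNA motifs of the form CANNTG that basic helix-loop-helix proteins such as TWIST1 also bind. A fall of CDH1 with a gain of CDH2 is called the cadherin switch and is a mark of epithelial-mesenchymal transition (EMT) in carcinomas.

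On all 3 treated arrays CDH1 was lower, and CDH2, SNAI1 and TWIST1 were higher, than on the PBS array, each by at least 2-fold. CDH3 and SNAI2 differed by less than 2-fold from PBS with each stimulus. VIM was lower with TNFα and LPS and close to PBS with IL1β. ZEB1, ZEB2 and FN1 stayed under the floor on every array. The floor is 8.02 on the log2 scale, or 260.5 in linear intensity, the median over named genes of the mean log2 intensity. A gene is called higher or lower where 2 arrays differ at least 2-fold and the brighter value reaches that floor. A value is called near background under 2 times the random-sequence control probes of its own array, a limit that lay between 108 and 113. The LPS array stood somewhat apart. Log2 differences from PBS over genes at the floor had an SD across genes of 0.59 with TNFα, 0.58 with IL1β and 0.80 with LPS.

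Promoter sequence was at hand for some of these genes in the RefSeq table of GRCh38.p14, which held entries for CDH2, ZEB1, ZEB2, VIM and FN1. The windows of CDH2 and VIM are shown because both genes differed from PBS and are counted among the mesenchymal products of the programme that E-box-binding factors govern. Each is the stretch of 250 bases before an annotated transcription start, 5′ to 3′ on the gene's strand, with any CANNTG in capitals. The first CDH2 window is chr18:28177131-28177380 and the second, before another start, is chr18:28036642-28036891, both on the minus strand. The VIM window is chr10:17227991-17228240 on the plus strand.
CDH2, first window: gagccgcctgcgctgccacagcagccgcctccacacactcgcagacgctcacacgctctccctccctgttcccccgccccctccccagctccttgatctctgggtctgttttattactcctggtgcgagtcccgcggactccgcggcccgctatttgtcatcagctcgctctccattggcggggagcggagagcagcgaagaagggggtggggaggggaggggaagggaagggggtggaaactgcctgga
CDH2, second window: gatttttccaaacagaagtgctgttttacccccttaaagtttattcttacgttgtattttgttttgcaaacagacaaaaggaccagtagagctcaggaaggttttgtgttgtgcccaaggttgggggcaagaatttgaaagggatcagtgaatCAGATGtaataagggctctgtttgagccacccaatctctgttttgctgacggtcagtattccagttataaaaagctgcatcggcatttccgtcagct
VIM: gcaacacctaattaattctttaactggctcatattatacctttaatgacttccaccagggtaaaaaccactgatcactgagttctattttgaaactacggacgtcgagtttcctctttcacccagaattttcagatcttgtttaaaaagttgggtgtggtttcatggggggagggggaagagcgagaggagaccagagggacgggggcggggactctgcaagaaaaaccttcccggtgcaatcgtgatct

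The first CDH2 window and the VIM window held no CANNTG. The second CDH2 window held 1, CAGATG, which begins 97 bases before the start. None of the 3 held CACCTG or its reverse complement CAGGTG, the form of the motif typical of SNAI and ZEB sites. Both strands were covered, since CANNTG reads the same on either strand. Of 35114 windows of the same length in that table, 61.8% held CANNTG and 17.5% held CACCTG or CAGGTG. A match describes the letters only, and which start serves KYSE410 cells is not known from the arrays.

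CDH1, the adhesion protein that defines epithelial junctions, had an intensity of 232 with TNFα, 287 with IL1β and 284 with LPS, against 1209 with PBS. The 3 treated arrays lay together, within 1.24-fold of each other, and the PBS array stood above them. CDH1 was thus 5.22-fold lower with TNFα, 4.22-fold lower with IL1β and 4.26-fold lower with LPS. With TNFα the value lay under the floor. Of 9417 genes at the floor in the comparison of TNFα with PBS, 25 had a difference as low as that of CDH1, itself included. That count was 51 of 9425 with IL1β and 83 of 9673 with LPS.

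CDH2 ran the other way. Its intensity was 1153 with TNFα, 852 with IL1β and 1367 with LPS, against 302 with PBS. All 3 treated values were above the PBS value, the LPS array highest and the IL1β array lowest among them. CDH2 was 3.82-fold higher with TNFα, 2.82-fold with IL1β and 4.53-fold with LPS. Differences as high were seen in 77 genes at the floor with TNFα, 121 with IL1β and 136 with LPS.

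CDH3, the cadherin of basal squamous cells, had intensities of 14837 with TNFα, 14139 with IL1β and 12991 with LPS, against 13041 with PBS. These 4 values lay within 0.19 on the log2 scale, and log2 differences from PBS were 0.19 (TNFα), 0.12 (IL1β) and -0.01 (LPS). CDH3 is the protein-coding gene next to CDH1 on chromosome 16 in the RefSeq table. The 2 neighbours thus changed unequally. The log2 difference of CDH3 exceeded that of CDH1 by 2.57 with TNFα, 2.19 with IL1β and 2.09 with LPS.

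The log2 difference of CDH2 exceeded that of CDH1 by 4.32 with TNFα, 3.57 with IL1β and 4.27 with LPS. Scaling of a whole array cancels in this quantity. The 3 values share the PBS array and are not separate measurements of the switch. Between treated arrays, which do not involve PBS, the same quantity was 0.74 for TNFα minus IL1β, -0.05 for LPS minus TNFα and 0.70 for LPS minus IL1β. On these arrays IL1β thus had the smallest shift from CDH1 towards CDH2, TNFα and LPS being alike. This order has no error estimate. Differences of single genes at the floor had an SD across genes of 0.44 for TNFα minus IL1β and 0.82 for LPS minus IL1β.

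**Figure D1:**
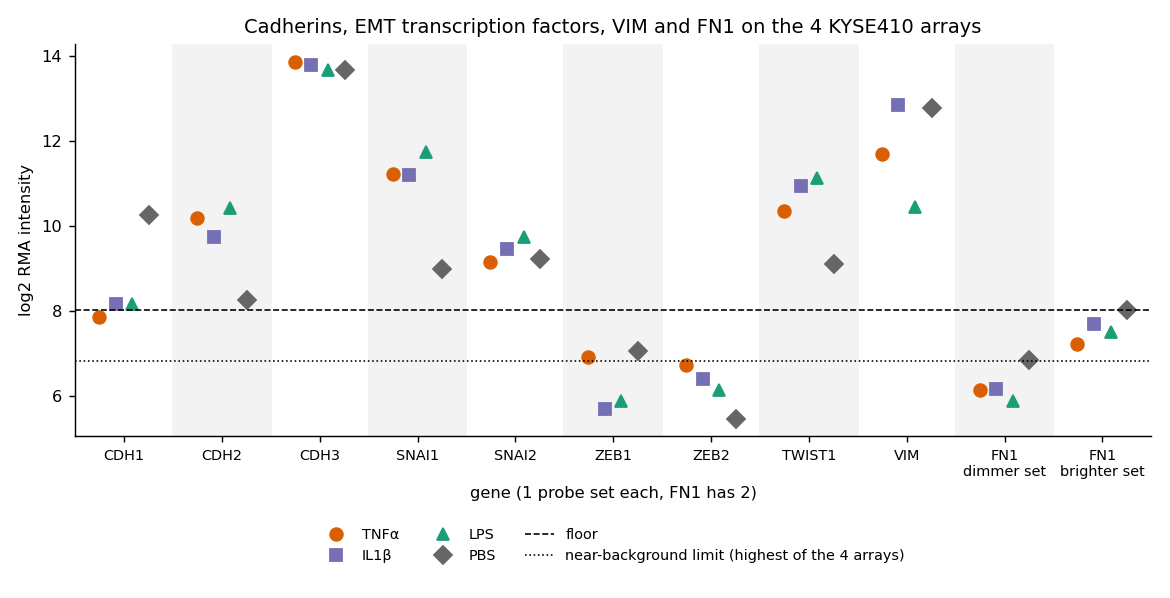
Log2 RMA intensity of the 11 probe sets of the 10 genes, 1 symbol per array, in the order TNFα, IL1β, LPS and PBS within each gene. The dashed line is the floor (8.02) and the dotted line the near-background limit. The PBS array lies above the treated arrays for CDH1 (1209 in linear intensity) and below them for CDH2 (302), SNAI1 (505) and TWIST1 (551).

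Among the transcription factors, SNAI1, a repressor of CDH1, had an intensity of 2385 with TNFα, 2338 with IL1β and 3378 with LPS, against 505 with PBS. The cytokine arrays were nearly equal, the LPS array was above them and the PBS array lay well below. SNAI1 was 4.72-fold higher with TNFα, 4.63-fold with IL1β and 6.69-fold with LPS. Differences as high were found in 56, 47 and 61 genes at the floor.

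SNAI2 (Slug), the closest relative of SNAI1 in this set, had an intensity of 564 with TNFα, 699 with IL1β and 852 with LPS, against 589.6 with PBS. The TNFα value lay just under PBS and the other treated values above it. Log2 differences were -0.06, 0.25 and 0.53, all short of 2-fold. The log2 difference of SNAI1 exceeded that of SNAI2 by 2.30 with TNFα, 1.96 with IL1β and 2.21 with LPS.

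TWIST1, a basic helix-loop-helix factor of mesoderm and neural crest, had an intensity of 1291 with TNFα, 1955 with IL1β and 2229 with LPS, against 551 with PBS. Again every treated array was above PBS, here with TNFα the lowest of the treated ones. TWIST1 was 2.34-fold higher with TNFα, 3.55-fold with IL1β and 4.05-fold with LPS. Differences as high were found in 201, 78 and 168 genes at the floor.

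ZEB1 and ZEB2, zinc finger and homeodomain repressors of CDH1, gave low signals throughout. ZEB1 had an intensity of 120.1 with TNFα, 51.2 with IL1β and 58.1 with LPS, against 133 with PBS. It was near background with IL1β and LPS and just over that limit with TNFα and PBS. ZEB2 had 105 with TNFα, 84.1 with IL1β and 70.4 with LPS, against 44 with PBS, and was near background on all 4 arrays. No fold is given for ZEB2 for that reason. Against the near-background limit ZEB1 was at least 1.18-fold lower with IL1β and with LPS.

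VIM, the intermediate filament protein of mesenchymal cells and leukocytes, had an intensity of 3298 with TNFα, 7326 with IL1β and 1389 with LPS, against 6935 with PBS. IL1β and PBS were high and close to each other, TNFα was intermediate and LPS lowest. VIM was 2.10-fold lower with TNFα and 4.99-fold lower with LPS, and with IL1β it was 1.06-fold higher. The TNFα difference lay at the edge of the size rule (log2 difference -1.07) and missed it after loess centring (-0.995). VIM is usually gained in EMT, and its differences with TNFα and LPS had the opposite sign to those of CDH2.

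FN1, the matrix glycoprotein fibronectin, had a brighter and a dimmer probe set. The brighter one had an intensity of 147 with TNFα, 206 with IL1β and 179 with LPS, against 257 with PBS, just under the floor. The dimmer one had 69.5 with TNFα, 71.7 with IL1β and 58.2 with LPS, against 114 with PBS, and was near background on the 3 treated arrays. Both sets were lower on every treated array than on PBS, by log2 differences of -0.80, -0.31 and -0.52 in the brighter set. None of these reached 2-fold.

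**Figure D2:**
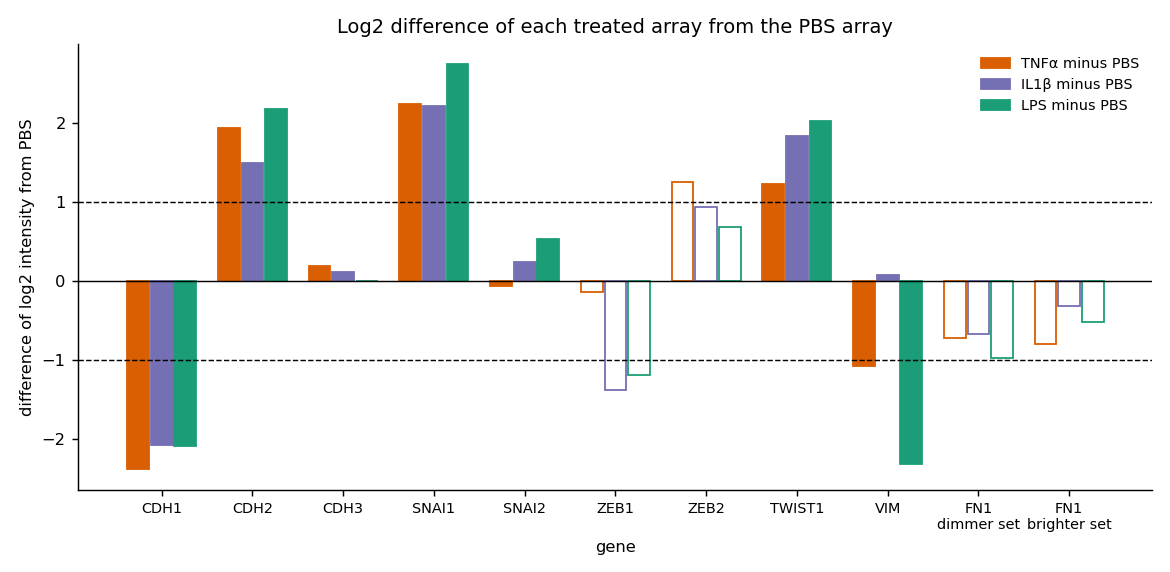
Difference of log2 intensity of each treated array from the PBS array for the 11 probe sets. Filled bars are sets with a value at the floor on either array, open bars are sets under it on both, and dashed lines mark 2-fold. CDH1 lies between -2.38 and -2.08, CDH2 between 2.82-fold and 4.53-fold higher, SNAI1 between 2.21 and 2.74, and VIM differs in size and sign between stimuli.

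Counted over the members, 7 of 10 reached the floor in each comparison with PBS. With TNFα 3 were higher and 2 lower, while among all 9417 genes at the floor 3.37% were higher and 3.4% lower. With IL1β 3 were higher and 1 lower, beside 3.13% higher and 3.58% lower of all genes. With LPS 3 were higher and 2 lower, beside 8.83% higher and 7.42% lower. Over all 10 members the median log2 difference was 0.06 with TNFα, 0.18 with IL1β and 0.26 with LPS, beside medians of -0.03, -0.03 and 0.02 over all named genes. The members moved in opposite directions, so these medians say little about single genes. The genes were picked with earlier results of these data known, and the 3 comparisons share the PBS array.

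**Figure D3:**
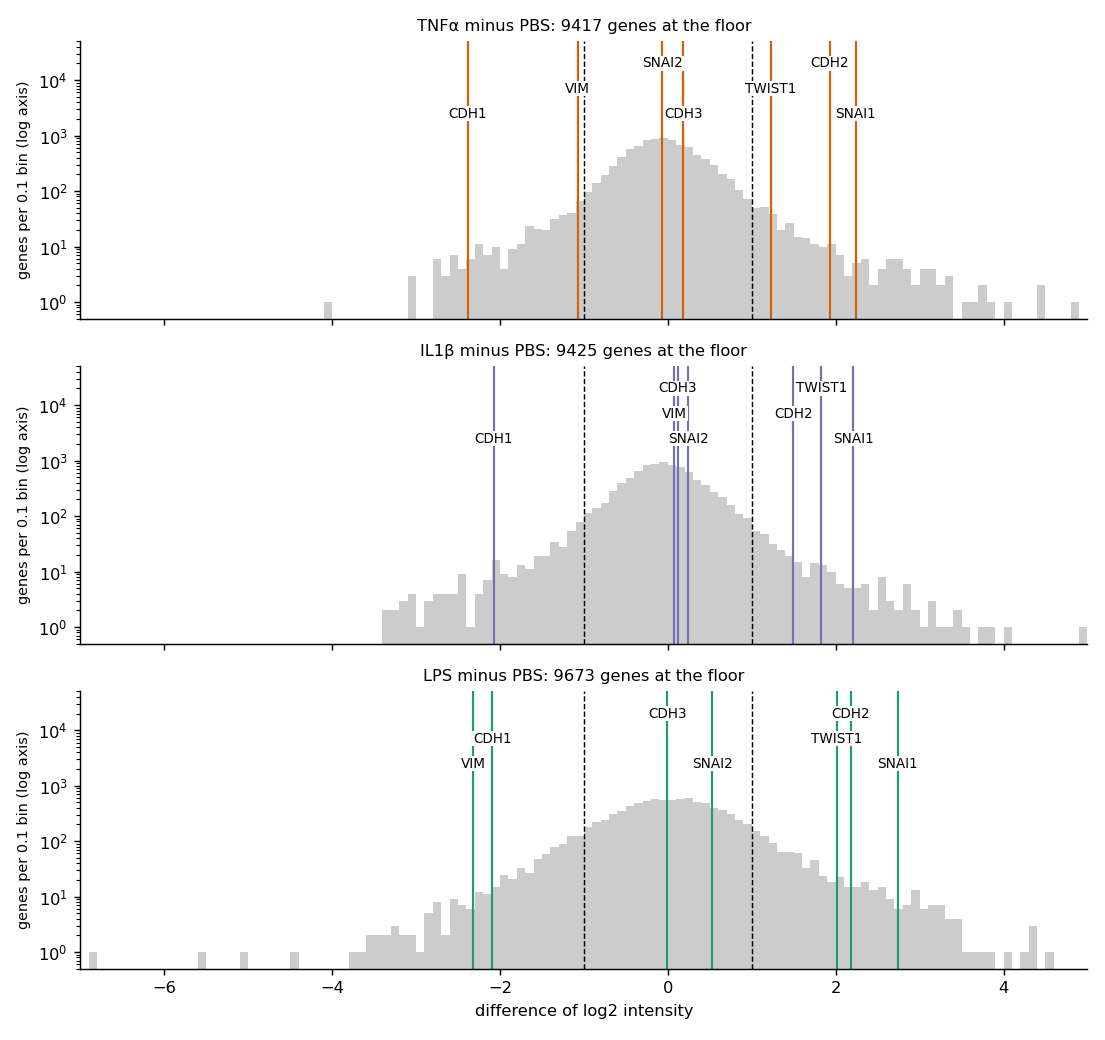
Histograms of the log2 difference from PBS over all genes at the floor, 1 panel per stimulus, with a logarithmic count axis. Coloured lines mark the members at the floor and dashed lines mark 2-fold. CDH1 lies in the lower tail and SNAI1, CDH2 and TWIST1 in the upper tail of each panel, while CDH3 and SNAI2 lie in the bulk.

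Direct comparison of the treated arrays leaves PBS out. No member was higher, and only VIM was lower, in TNFα minus IL1β (1.87% of all genes at the floor higher, 1.74% lower). The same held for LPS minus TNFα (9.93% higher, 7.1% lower) and LPS minus IL1β (10.6% higher, 7.45% lower). VIM was 2.22-fold lower with TNFα than with IL1β, 2.37-fold lower with LPS than with TNFα and 5.27-fold lower with LPS than with IL1β. Across the treated arrays the values of VIM spanned 5.27-fold. The span was 1.14-fold for CDH3, 1.24-fold for CDH1, 1.44-fold for SNAI1, 1.51-fold for SNAI2, 1.61-fold for CDH2 and 1.73-fold for TWIST1. The median span was 1.49-fold over 8591 genes with a mean at the floor, and 0.954% of them spanned as much as VIM.

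The lists around the members are described next, each count being read beside the shares over all genes at the floor, 3.37% higher and 3.4% lower with TNFα, 3.13% and 3.58% with IL1β, and 8.83% and 7.42% with LPS. In lists this short, counts of 0 or 1 are close to those shares and are no result about a list. Of 12 measured catenins and related genes, which carry cadherins, 8 reached the floor, and 0 were 2-fold different with TNFα or IL1β. With LPS 1 of 8 was lower, CTNNB1 (β-catenin), at 2862 with TNFα, 2449.5 with IL1β and 803 with LPS, against 2641 with PBS, 3.29-fold lower with LPS. Other partners, named after their values were seen, were CTNNA1 (α-catenin), CTNND1 (p120) and JUP (plakoglobin). JUP had 21769 with TNFα, 20762 with IL1β and 17156 with LPS, against 18664 with PBS. CTNND1 had 9312, 7451 and 7869 with the same stimuli, against 9586 with PBS.

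Of 19 other cadherins none met the size rule in any comparison with PBS, and at most 3 reached the floor. Those were CDH13 (T-cadherin, held in the membrane by a lipid anchor), CDH16 and CDH24. CDH13 had 312 with TNFα, 209 with IL1β and 706 with LPS, against 369 with PBS, a log2 difference of 0.94 with LPS. The mesenchymal cadherin CDH11 stayed near background on each array.

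Of 17 measured further transcription factors of EMT, 10 reached the floor with TNFα, 10 with IL1β and 11 with LPS, and 0 were higher than PBS in each comparison. In the whole list the median log2 difference was -0.16 with TNFα, 0.11 with IL1β and -0.06 with LPS. FOXQ1, a forkhead factor, was at 101 with TNFα, 103 with IL1β and 659 with LPS, against 477 with PBS, at least 4.27-fold lower with TNFα and at least 4.25-fold lower with IL1β. ETS1 was 2.41-fold lower with IL1β, and the homeobox gene GSC (goosecoid) at least 2.46-fold lower with LPS. Among epithelial regulators and repressors of EMT, 15 were measured, and 13 reached the floor with TNFα, 10 with IL1β and 12 with LPS. FOXA2 was 2.14-fold lower with TNFα and 2.09-fold lower with IL1β, with no other member of that list past the rule. With LPS 3 were higher and 1 lower. ID1, an inhibitor of basic helix-loop-helix proteins, had 517 with TNFα, 333 with IL1β and 2541 with LPS, against 335 with PBS, 7.58-fold higher with LPS. Its relative ID3 was 6.17-fold higher, the ZEB1 repressor OVOL2 2-fold higher and GRHL2, a grainyhead factor that upholds CDH1 transcription, 2.04-fold lower.

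Of 31 measured epithelial effectors other than CDH1, 25 reached the floor with TNFα, 24 with IL1β and 25 with LPS. Of these 0 were 2-fold different with TNFα and 1 was lower with IL1β, the tight junction protein CLDN1 (3.28-fold). With LPS 1 was higher, the mucin MUC1 (11-fold, 1313 against 119 with PBS, the latter little over the near-background limit). The 3 lower ones with LPS were TJP1 (2.40-fold), CLDN4 (2.24-fold) and MARVELD2 (2.13-fold), all of tight junctions. Over all 31 measured epithelial effectors the median log2 difference was -0.08 (TNFα), -0.26 (IL1β) and -0.02 (LPS).

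Of 36 mesenchymal effectors counted, 18 reached the floor with TNFα, 19 with IL1β and 21 with LPS. Of these 2 were lower and 0 higher with TNFα and again with IL1β, while 4 were higher and 4 lower with LPS. NES, the intermediate filament protein nestin, had 279.9 with TNFα, 245 with IL1β and 183 with LPS, against 871 with PBS, 3.11-fold, 3.56-fold and 4.76-fold lower. Smooth muscle actin (ACTA2) was 2.50-fold lower with TNFα and S100A4 2.45-fold lower with IL1β. With LPS, the collagen chain COL5A1 was 7.93-fold and the ligand WNT5A at least 4.61-fold higher. COL5A1 had 880 with LPS against 111 with PBS, the latter little over the near-background limit. The tropomyosin TPM1 was 3.92-fold lower with LPS, though its 6 probe sets did not all have that sign. COL1A2, another collagen chain, was 3.11-fold lower with LPS. Their median log2 difference over all 36 was -0.15 (TNFα), -0.19 (IL1β) and -0.04 (LPS).

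**Figure D4:**
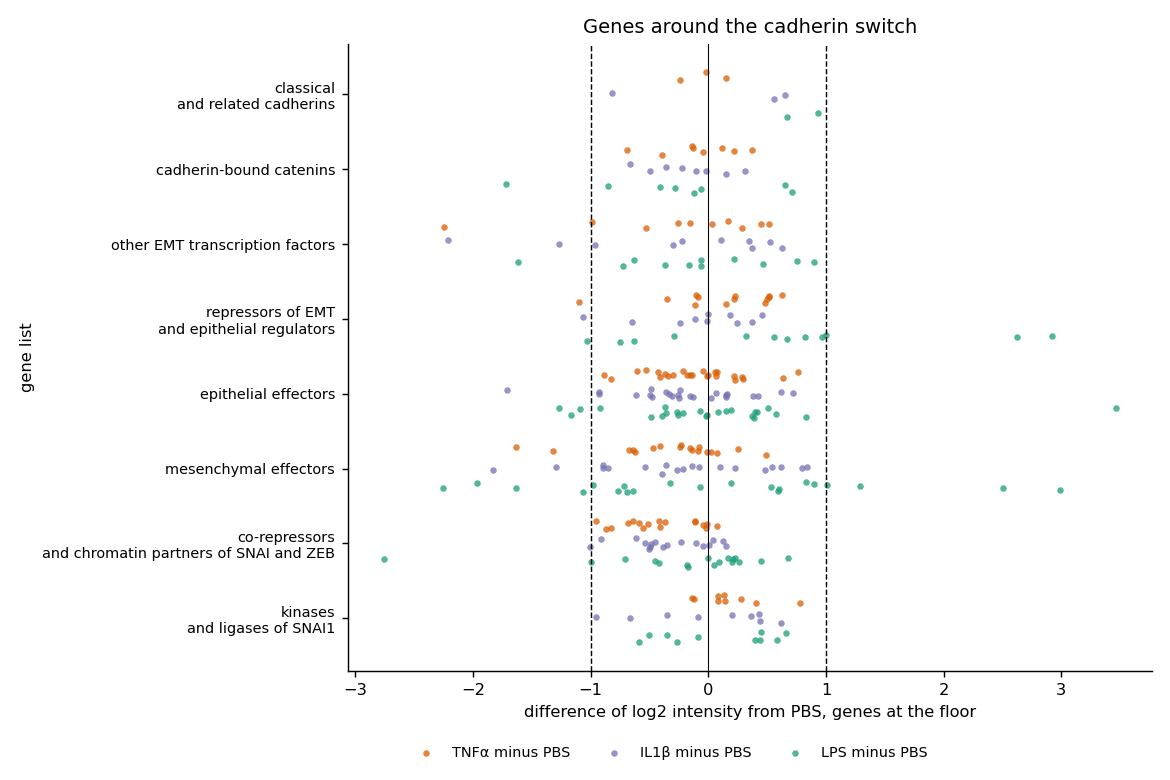
Difference of log2 intensity from PBS for genes of 8 lists around the cadherin switch that reached the floor, 1 point per gene and 1 colour per stimulus, with dashed lines at 2-fold. Most points lie between the dashed lines. The isolated points include MUC1 (11-fold higher with LPS) and COL5A1 (7.93-fold higher with LPS), both little over the near-background limit with PBS.

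All 17 measured co-repressors and chromatin partners of SNAI and ZEB proteins reached the floor in each comparison with PBS. With TNFα, 0 met the rule. AJUBA, an adaptor of SNAI1, was 2.01-fold lower with IL1β. RCOR1 (CoREST) was at least 4.71-fold lower with LPS. This list had a median log2 difference of -0.42 after TNFα, -0.38 after IL1β and 0.05 after LPS. Of 12 measured kinases and ligases that act on SNAI1, 9 reached the floor with TNFα, 9 with IL1β and 10 with LPS. In each comparison with PBS, 0 of them met the rule.

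Across the 4 arrays, the pattern most like that of CDH1 among 8584 other genes with a mean at the floor was that of HOXB8, a homeobox gene. It had 159 with TNFα, 184 with IL1β and 209.8 with LPS, against 807 with PBS. Next came PIGL and MSH5. Likeness was the Euclidean distance between log2 values centred on each gene's mean, 0.15, 0.17 and 0.32 for the 3 genes. For SNAI1 the nearest were AIF1, IFNGR2, the second chain of the interferon γ receptor, and TAP1, the peptide transporter, at distances of 0.32, 0.39 and 0.40. With 4 arrays such likeness is a description of these arrays only.

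Squamous markers fitted the label of the line, with 15 of 15 at the floor on each array and the keratin KRT5 between 48523 and 59819.7. With LPS 4 of the 15 were higher than with PBS, beside 8.83% of all genes. They were KRT4 (3.71-fold), TP63 (2.79-fold), KRT14 (2.38-fold) and KRT17 (2.12-fold). With TNFα 1 was higher, KRT13 (2.04-fold), and with IL1β 0. None was 2-fold lower than with PBS, though some lay below it, as did IVL with LPS (264 against 396). Markers of other cells were present unevenly. The summed intensity of 14 leukocyte markers was 12413 with TNFα, 15240 with IL1β and 1711 with LPS, against 9794 with PBS. LYZ (lysozyme) alone had 5600, 10389.6 and 209 with these stimuli, against 6917 with PBS. VIM, which leukocytes also express, was thus lowest on the array where the leukocyte sum was lowest. With TNFα that sum was above PBS, while VIM was 2.10-fold lower. The members of the sum were not alike. With TNFα 6 reached the floor, 2 higher (PTPRC and FCGR3A, 2906 against 212) and 0 lower, beside 3.37% and 3.4% of all genes. LYZ and CD68 (312 against 608) lay below PBS by less than 2-fold. With IL1β 8 reached the floor, 3 higher and 0 lower, beside 3.13% and 3.58%. Among these markers CD14 and CD3D, both under the floor, were highest with LPS (211 and 253, against 164 and 107 with PBS). The part of leukocyte transcripts in the VIM result was not tested. With LPS against PBS 4 of the 14 reached the floor and 3 were lower, beside 7.42% of all genes. The lower ones were LYZ, the myeloid adaptor TYROBP (at least 7.10-fold) and the macrophage protein CD68 (2.18-fold). The pan-leukocyte marker PTPRC was near background on both of those arrays, and its intensity was 1295 with TNFα and 1046 with IL1β, against 91.5 with PBS. The summed intensity of 13 heart muscle markers was 53715 with TNFα, 61353 with IL1β and 15264 with LPS, against 41003 with PBS. With LPS against PBS 9 of the 13 reached the floor. Of these 6 were lower and none higher, beside 7.42% lower and 8.83% higher of all genes. MYH6 and MYH7 were near background with LPS. ACTC1 stayed bright, at 12945 with LPS against 17961 with PBS, and MYL7 had 562 with LPS against 439 with PBS. CDH2, which heart muscle also expresses, was highest on the LPS array, and the part of these transcripts in its level was not tested. Fibroblast markers summed to 2408 with TNFα, 2154 with IL1β and 1491 with LPS, against 2113 with PBS, with 1 to 3 of 12 at the floor on an array. COL1A2 had 668 with TNFα, 507 with IL1β and 237 with LPS, against 736 with PBS, and DPT had 361, 385 and 288 with these stimuli, against 260.3 with PBS. COL6A3, LUM, FAP and THY1 were near background on all 4 arrays. Endothelial markers summed to between 1969 and 2301, with KDR, TEK and EMCN near background throughout. With LPS against PBS 4 of the 12 reached the floor, 1 higher and 1 lower, beside 8.83% higher and 7.42% lower of all genes. ESAM was at least 2.85-fold higher and PECAM1 at least 3.71-fold lower. With TNFα PECAM1 was 3.30-fold lower (127 against 419 with PBS). ROBO4 had 676 with TNFα, 625 with IL1β and 562 with LPS, against 533 with PBS. All 4 arrays are labelled as this 1 cell line. Bulk RNA does not show where these transcripts came from, nor tell fewer cells of a type from less RNA per cell. Their source was not tested.

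**Figure D5:**
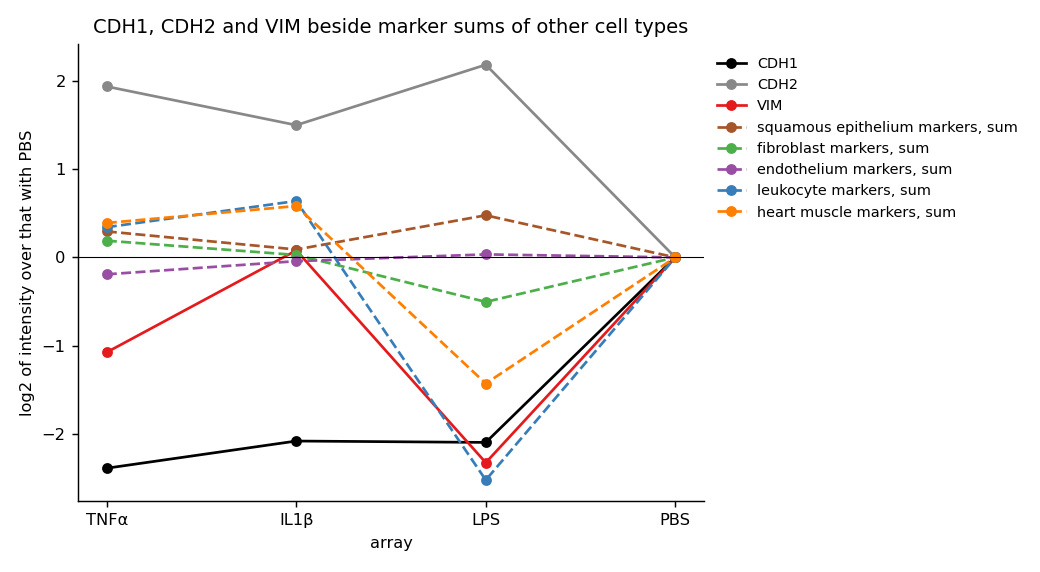
Log2 of the intensity on each array over that on the PBS array for CDH1, CDH2 and VIM (solid lines) and for the summed markers of 5 cell types (dashed lines). Lines join the values of 1 item. VIM and the leukocyte sum (1711 with LPS against 9794 with PBS) are both low on the LPS array, whereas CDH2 is high there.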

How the data were processed

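RNA of KYSE410 cells under 4 conditions was copied to cDNA, labelled with Cy3 and hybridised to single-colour NimbleGen arrays, per the labels' protocols. The authors deposited a linear RMA intensity for each probe set, mostly of 3 probes, per the file headers. The sources used here do not give the software, settings or genome build. RMA usually gives all arrays the same distribution of values, so a change shared by most genes is not seen. The series value table held the same intensity for all 45033 probe sets.

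Accessions were matched without versions to RefSeq (GRCh38.p14, used for names and promoter windows). A symbol was found for 18863 probe sets, and a gene took its set with the highest mean log2 intensity. Differences are log2 intensities of 1 array minus another. No test was possible. Members, lists, floor and limits were chosen with earlier results of these data known. Named were all members and the 3 genes most like each of CDH1 and SNAI1. From each list around the members, up to 5 genes at least 2-fold different were named per comparison with PBS. Of the cell type markers only some are named, and unnamed ones also met the size rule. A gene each of the epithelial and the mesenchymal effector lists is not reported here and is left out of their counts and medians. A fold with 1 side near background was taken against the limit and is written "at least". Simulated arrays with known folds were used only to check the code, with noise taken from TNFα minus IL1β. They give no error rate for differences from PBS, which spread more widely across genes. Tools were pandas 2.3.3 and numpy 2.4.6 under Python 3.11.15, with statsmodels 0.14.6 for loess and matplotlib 3.10.9 for plots.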

Additional observations from a re-analysis of the deposited data

How the results depend on the processing

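The settings tried were thresholds of 1.5-fold and 3-fold, a floor removed or raised to the 75th percentile, the second or the averaged probe set of a gene, loess centring, quantile normalization once more, an offset of 50.9 before log2, and values from the series table. No member past the size rule changed sign under any of them, though thresholds and floors cannot change a sign. Of 120 counts of members over these settings, 110 stayed within 1.5 times the reported value. Many of these counts could not move. The series table holds the same values, and among members only FN1, under the floor in both sets, has a second probe set. Without a floor, ZEB1 joined the lower members with IL1β against PBS (2 in place of 1), with LPS against PBS (3 in place of 2) and with LPS against TNFα (2 in place of 1), ZEB2 joined the higher members with TNFα against PBS (4 in place of 3), and ZEB1 was the 1 higher member with TNFα against IL1β. Loess centring left 1 lower member with TNFα, CDH1, as did the 3-fold threshold. At 1.5-fold, 2 members were lower with TNFα than with IL1β, 2 were higher with LPS than with TNFα and 1 was higher with LPS than with IL1β. At 3-fold, 0 were lower with TNFα than with IL1β and 0 with LPS than with TNFα. With 3-fold as the limit, CDH2 with IL1β (2.82-fold) and TWIST1 with TNFα (2.34-fold) also missed it. No paired analysis was possible because each condition has 1 array. Signals under the floor, as for ZEB1, ZEB2 and FN1, limit what could be seen of those genes.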
